A study of Rattus norvegicus with 3 samples.

Results

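Of 9084 annotated Seh1 peaks in rat oligodendrocyte progenitor cells (OPC), 902 lay in a long interspersed nuclear element (LINE). A peak was taken as a LINE peak when the authors' annotation gave LINE as the class of the repeat under it, and no entry carried the question mark that stands for an uncertain class. Repeat labels were given to intergenic and intron peaks alone, so repeats under promoters and exons are not counted. LINE peaks made up 9.93% of all annotated peaks (95% exact binomial interval 9.32 to 10.6%). Among the 7828 intergenic and intron peaks their share was 11.5%.

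Chromatin bound by Seh1, a subunit of the Y complex of the nuclear pore, was measured by chromatin immunoprecipitation and sequencing (ChIP-seq) with 1 Seh1 library of OPC and 1 of immature oligodendrocytes (iOL). Both came from forebrain of Sprague Dawley rats at postnatal day 1 to 2, and the labels give no genotype for either. OPC were kept in PDGF-AA, CNTF, bFGF and NT3. For iOL, PDGF-AA, bFGF and NT3 were removed and triiodothyronine (T3) was given at 60 nM for 1 day. In OPC 9117 peaks were called, each 205 bp wide, of which 33 had no annotation, and in iOL 6704, each 209 bp wide. Positions are on rat build rn6. An IgG library of iOL was also made and is not analysed here, so background at LINE repeats was not measured. The name of the annotated OPC peak set joins OPC Seh1 with iOL IgG. What part that library of the other stage had in the OPC peaks and scores was not established here. The depth of the libraries is unknown. With 1 library a stage there is no replicate error: values describe these peak lists, intervals cover counting error only, and no test between stages or repeat classes was made. The files hold no expression values, so the labelled cell types could not be checked against markers.

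LINEs are retrotransposons that copy themselves through RNA with a reverse transcriptase of their own. L1 is the family still active in rodents. An intact L1 carries a promoter in its 5' region and 2 reading frames, one for an RNA-binding protein and one for the endonuclease and reverse transcriptase, but most copies are truncated at the 5' end and cannot move. Cells hold L1 down with DNA methylation and with repressive histone marks. In neural progenitor cells of rodents, L1 elements are known for some residual activity. L2 and CR1 are far older families that no longer move in mammals.

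The LINE peaks were almost all in L1. This family held 877 of 902 peaks (97.2%, 95% exact binomial interval 95.9 to 98.2%). L2 held 21 peaks (2.33%), RTE-BovB 2, CR1 1 and RTE-X 1. The peaks fell in 60 subfamilies, of which 17 had 10 or more peaks and 20 had 1 peak.

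Subfamilies named for rat and for rodents dominated. L1_Rn, a rat L1, had 217 peaks (24.1% of the LINE peaks). RNHAL1, a rat element of the HAL1 ("half-L1") kind, which has the first L1 reading frame and lacks the other, had 169 (18.7%). L1_Rat1 followed with 80 peaks, and these 3 subfamilies together made up 51.7% of the LINE peaks. Next came Lx, a murine L1 group, with 44 peaks, L1_Rat2 with 36, L1_Rat4 with 31, Lx5 with 25, Lx8 with 23, L1_Rn2 with 22 and Lx2 and Lx3A with 21 each. By name, 683 LINE peaks (75.7%, 72.8 to 78.5%) belonged to rodent-lineage L1 in 31 subfamilies, and 25 (2.77%) to older mammalian L1 in 20 subfamilies. RNHAL1 fell outside both groups by its name. How much of the rn6 genome each subfamily covers was not measured, so these counts show neither preference for a subfamily nor avoidance of it.

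**Figure D1:**
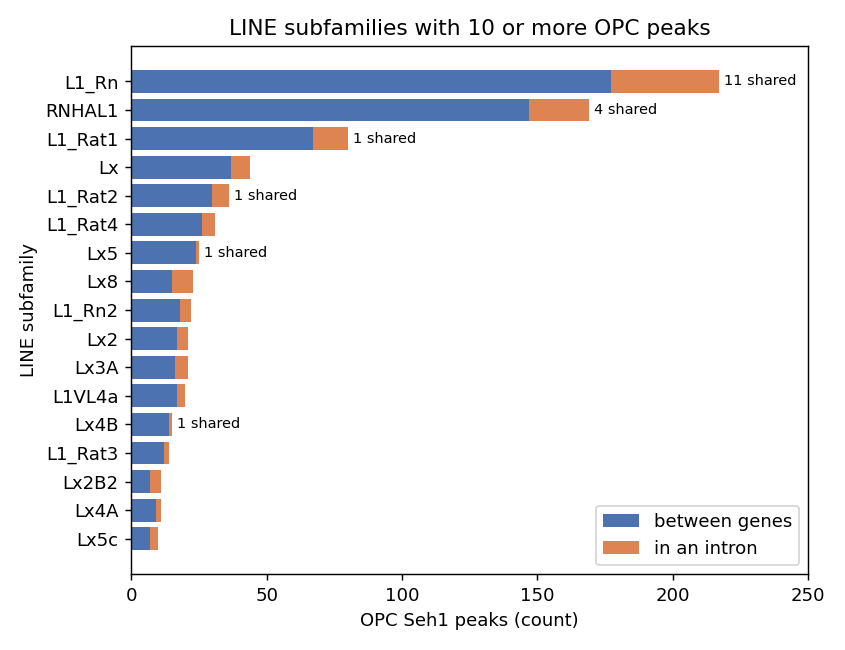
OPC Seh1 peaks (count, horizontal axis) in each of the 17 LINE subfamilies with 10 or more peaks, split into peaks between genes and in introns. The text beside a bar gives how many of its peaks overlapped an iOL peak: L1_Rn has both the longest bar (217 peaks) and the most overlaps (11).

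Scores were higher in L1_Rn, RNHAL1 and L1_Rat1 than in the other LINE peaks. The score is the caller's value for each peak in the authors' deposited table, has no stated unit and takes separate values about 0.64 apart. The median over all 902 LINE peaks was 7.66 (quartiles 7.02 and 8.3), and the median over all annotated peaks was also 7.66. LINE scores ran from 5.75 to 14.7, while peaks outside LINE reached 197.3. L1_Rn had a median of 8.3 with quartiles of 7.66 and 9.58. RNHAL1 and L1_Rat1 had a median of 7.66, each with an upper quartile of 8.94. The 436 other LINE peaks had a median of 7.02 and quartiles of 6.38 and 7.66. Of the 17 subfamilies with 10 or more peaks, 12 had a median of 7.02. LTR and SINE peaks, which lie in the other common retrotransposon classes, also had a median of 7.02.

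A score of at least 10 was reached by 73 LINE peaks (8.09%, 6.40 to 10.1%), against 5.52% of all annotated peaks. LTR peaks reached it in 1.84% and SINE peaks in 1.38%. In RatSatRep2, another labelled rat repeat, 69 of 279 peaks did (24.7%, 19.8 to 30.2%). L1_Rn gave 41 of the 73, which is 18.9% of its own peaks (13.9 to 24.7%), and RNHAL1 gave 20, or 11.8% of its peaks (7.38 to 17.7%). Of the other 436 LINE peaks outside these subfamilies and L1_Rat1, 7 reached it (1.61%, 0.648 to 3.28%). The share of L1_Rn among LINE peaks was 15.6% at scores under 7, 16.1% at 7 to under 8, 34.5% at 8 to under 10 and 56.2% at 10 to under 15. None of the 70 OPC peaks with a score of 15 or more was in a LINE. None was in an LTR or SINE repeat either, where the highest scores were 11.5 and 13.4.

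**Figure D2:**
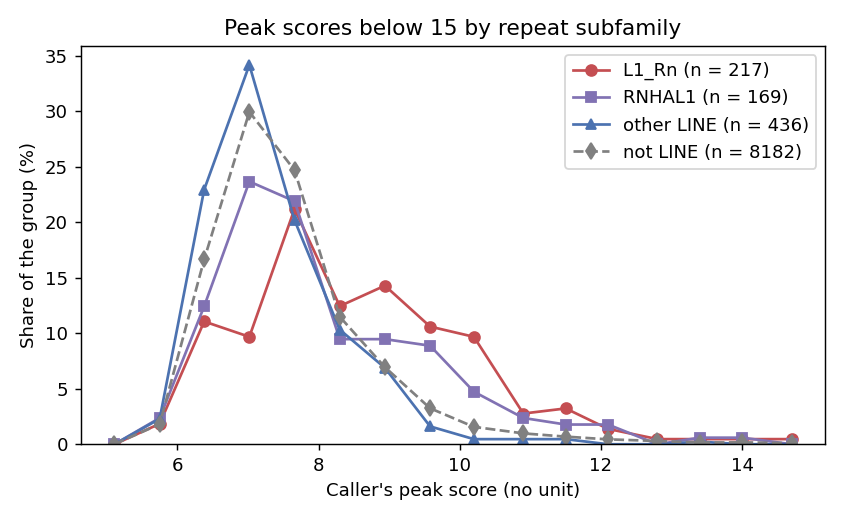
Share of each group (percent, vertical axis) at each value of the caller's score below 15 (horizontal axis), for L1_Rn, RNHAL1, the other LINE peaks without L1_Rat1, and peaks outside LINE. The L1_Rn line lies to the right of the other LINE peaks: 18.9% of L1_Rn peaks and 1.61% of the others have a score of at least 10.

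The 10 highest LINE peaks held 6 peaks of L1_Rn, 3 of RNHAL1 and 1 of Lx9, and all 10 lay between genes. The top peak was an L1_Rn copy on chromosome X (38697912 to 38698116, score 14.7), 230.2 kb upstream of the transcription start site (TSS) of Map7d2, a microtubule-associated protein gene. An RNHAL1 copy 34.1 kb downstream of the TSS of the carboxylesterase gene Ces2 (chromosome 1, 282728861 to 282729065) and an L1_Rn copy nearest to Marf1, a gene of oocyte meiosis (chromosome 10, 1092911 to 1093115), each scored 14. A score of 13.4 was given to an L1_Rn copy nearest to Etfb (chromosome 1, 98148722 to 98148926), to the Lx9 copy nearest to Tenm3, a teneurin adhesion gene (chromosome 16, 45280691 to 45280895), and to an RNHAL1 copy nearest to the centromere protein gene Cenpq (chromosome 9, 23123417 to 23123621). The L1_Rn copy nearest to the remodeller gene Chd6 scored 12.8 (chromosome 3, 157260939 to 157261143). Copies nearest to Nmbr, the olfactory receptor gene Or2m12 and Dpp10 scored 12.1. That score was shared by 7 LINE peaks (3 of L1_Rn, 3 of RNHAL1 and 1 of L1_Rat1). The first 3 by position were taken, so the make-up of the 10 depends on this order. The Cenpq peak was the 1 peak of the 10 that overlapped an iOL peak. At the low end, 20 LINE peaks had a score of 5.75, among them copies of Lx3C near Tmem135, L1_Rn near Htr1f, Lx4A near Lppos, RNHAL1 near Or6c33b and Lx2A near B3galt2.

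The same 3 subfamilies had the lowest focus ratios. HOMER's focus ratio is the fraction of a peak's reads that lie on the side of its centre where a single point of binding would put them, so a broad peak has a low value. The median was 0.688 for L1_Rn (quartiles 0.632 and 0.75), 0.722 for RNHAL1 and 0.722 for L1_Rat1, against 0.812 for the other LINE peaks (quartiles 0.75 and 0.867). These 3 were the subfamilies with a median under 0.75 among the 17 with 10 or more peaks. LINE peaks as a whole had a median of 0.75, all annotated peaks 0.778, LTR peaks 0.786 and SINE peaks 0.8. Peaks in RatSatRep2, another labelled rat repeat, stood nearest to L1_Rn with a median focus ratio of 0.682 and a median score of 8.94 over 279 peaks.

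At equal score L1_Rn and RNHAL1 were still lower, and L1_Rat1 was lower at all scores from 5.75 to 10.9 but 1. Among peaks with a score of 7.66 the median focus ratio was 0.698 over 46 L1_Rn peaks, 0.722 over 37 RNHAL1 peaks, 0.824 over the other LINE peaks and 0.778 over peaks outside LINE. At a score of 8.94 it was 0.692 for L1_Rn, 0.75 for RNHAL1, 0.842 for the others and 0.769 outside LINE. L1_Rat1 had 0.786 over 21 peaks with a score of 7.02, the same as peaks outside LINE, and 0.737 over 13 peaks at 7.66. At 8.3 it had 0.692 against 0.778 outside LINE, and at 8.94 it had 0.6275 against 0.769. Some L1_Rat1 medians rest on few peaks, such as 2 at 5.75 and 1 at 10.9. Across the score classes under 7, 7 to under 8, 8 to under 10 and 10 to under 15, the L1_Rn median was 0.688, 0.688, 0.692 and 0.649. Over the same classes the other LINE peaks had 0.8, 0.812, 0.842 and 0.786, the last from 7 peaks.

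**Figure D3:**
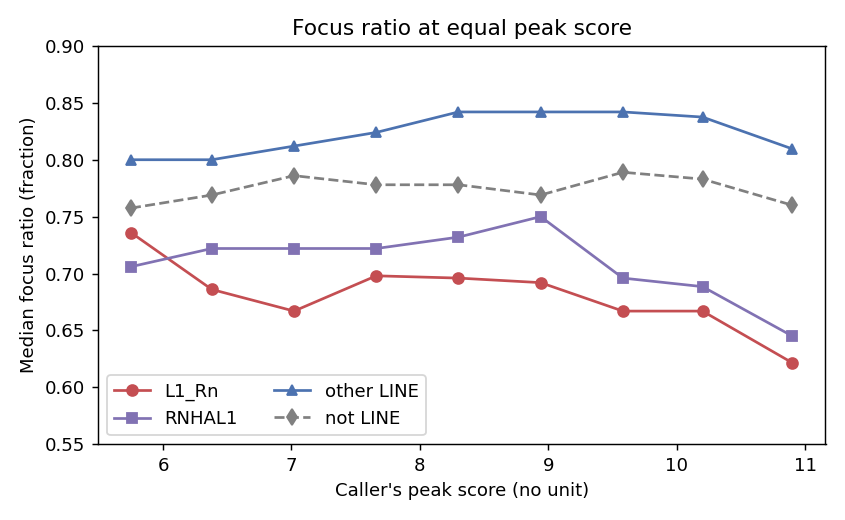
Median focus ratio (fraction, vertical axis, which does not start at 0) at each value of the caller's score from 5.75 to 10.9 (horizontal axis). L1_Rn and RNHAL1 lie below peaks outside LINE at every score shown, and the other LINE peaks lie above them. L1_Rat1 is not drawn.

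L1_Rn gave the most LINE peaks that overlapped an iOL peak. In all, 20 LINE peaks had an overlap of 1 bp or more with an iOL peak (2.22%, 1.36 to 3.40%), against 1.73% of all annotated peaks, and the interval takes in that value. Of the 157 overlaps behind the 1.73%, 39 came from the 70 peaks with a score of 15 or more. None of those 70 was in a LINE, so the 2 shares cover unlike score ranges. L1_Rn had 11 of the 20, or 5.07% of its 217 peaks (2.56 to 8.89%). Lx2B had 1 of 8 (12.5%, 0.316 to 52.7%) and Lx4B 1 of 15 (6.67%, 0.169 to 31.9%), so by share L1_Rn was not the first. RNHAL1 had 4 (2.37%, 0.649 to 5.95%), L1_Rat1 1, and the other 436 LINE peaks, Lx2B and Lx4B among them, 4 (0.917%, 0.251 to 2.33%). Without L1_Rn the LINE share was 9 of 685 (1.31%, 0.602 to 2.48%). For comparison, 6 of 708 LTR peaks overlapped an iOL peak (0.847%, 0.312 to 1.84%), 0 of 509 SINE peaks, which allows a share of up to 0.589%, and 17 of 279 RatSatRep2 peaks (6.09%, 3.59 to 9.58%). LINE peaks made up 12.7% of the 157 annotated OPC peaks with an overlap (7.96 to 19.0%).

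Score moved with overlap. None of 179 LINE peaks with a score under 7 overlapped an iOL peak, which allows a share of up to 1.68%. The share was 1.20% of 415 LINE peaks at 7 to under 8, 3.83% of 235 at 8 to under 10 and 8.22% of 73 at 10 to under 15. Outside LINE it was 0.794%, 0.649%, 1.97% and 6.15% in the same classes, and each of these values lies inside the interval of the LINE share of its class. For L1_Rn the 2 upper classes gave 6 of 81 peaks (7.41%, 2.77 to 15.4%) and 4 of 41 (9.76%, 2.72 to 23.1%). The part of score in the overlap of L1_Rn was not tested.

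The 20 shared LINE peaks lay on 15 chromosomes, 16 between genes and 4 in introns. The widest overlap, the full 205 bp, was at an L1_Rn copy in intron 1 of Oog3l1, an oogenesin-like gene (chromosome 5, 99128014 to 99128218, score 9.58). An Lx4B copy in the last intron of Spag6l, a sperm flagellum gene, overlapped by 199 bp (chromosome 11, 88509746 to 88509950, score 7.02). L1_Rn copies upstream of the endothelial adhesion gene Esam (-40.5 kb, chromosome 8, 39957248 to 39957452) and of Slc17a5, the lysosomal sialic acid exporter gene (-37.8 kb, chromosome 8, 85964089 to 85964293), overlapped by 196 and 159 bp, with scores of 10.2 and 11.5. The Cenpq copy overlapped by 189 bp, and L1_Rn copies nearest to Kif20b and Idi2 by 187 and 175 bp.

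An RNHAL1 copy 53.0 kb from the TSS of the transcription factor gene Jun (chromosome 5, 113961204 to 113961408) overlapped by 141 bp, and an Lx5 copy 99.1 kb upstream of the connexin gene Gjb6 by 138 bp. Further overlaps were at an L1_Rat2 copy nearest to Dtwd2 (131 bp) and at L1_Rn copies nearest to Cdh8, Adam6, the olfactory receptor gene Or1j12 and Pgk2 (129, 127, 110 and 110 bp). The overlap was shortest at 57 bp, in an L1_Rat1 copy in intron 4 of Ranbp17, a gene of the importin-beta family of nuclear transport receptors. Its score was 11.5 (chromosome 10, 18416142 to 18416346). This peak and its gene were picked after their values were seen. Shared LINE peaks had a median score of 8.94 and a median focus ratio of 0.687, against 7.66 and 0.75 over the 882 others.

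LINE peaks lay far from genes. Between genes there were 735, and 167 lay in introns (18.5%, 16.0 to 21.2%), against 34.2% of all peaks between genes or in introns. The nearest TSS was at a median of 147.2 kb (quartiles 48.4 and 387.8 kb), against 39.8 kb for the other peaks between genes or in introns, 58.8 kb for LTR peaks, 30.2 kb for SINE peaks and 154.3 kb for RatSatRep2 peaks. At 100 kb or more from a TSS stood 541 LINE peaks (60.0%, 56.7 to 63.2%), against 30.5% of all peaks between genes or in introns and 59.5% of RatSatRep2 peaks. Of the RatSatRep2 peaks 16.1% were in introns, so LINE and RatSatRep2 peaks had similar positions by these measures. Downstream of the TSS lay 468 (51.9%, 48.6 to 55.2%), against 55.4%.

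The share of LINE in these peaks was higher at larger distances. It was 2.69% of 782 peaks within 5 kb of a TSS (1.67 to 4.08%), 6.31% of 1616 peaks at 5 to 20 kb, 6.28% at 20 to 50 kb and 9.70% at 50 to 100 kb. It reached 16.3% at 100 to 200 kb, 22.5% at 200 to 500 kb and 37.4% of 460 peaks at 500 kb or more (33.0 to 42.0%). SINE peaks went from 6.52% within 5 kb to 8.73% at 5 to 20 kb and then down to 1.74% at 500 kb or more, and LTR peaks went from 3.84% within 5 kb to 15.7%. The LINE content of the genome at these distances was not measured, so its part in this trend was not tested.

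**Figure D4:**
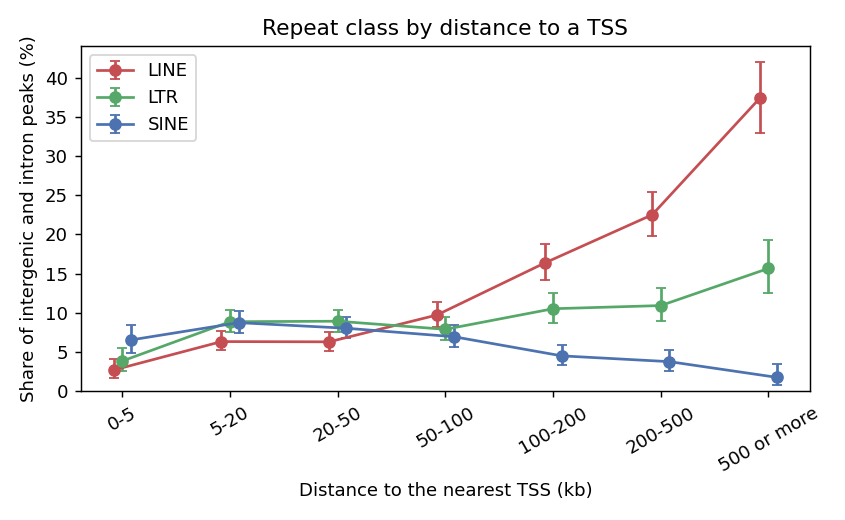
Share of the OPC peaks between genes or in introns (percent, vertical axis) that lie in LINE, LTR and SINE repeats, by distance to the nearest TSS (kb, horizontal axis), with exact binomial 95% intervals as bars. LINE goes from 2.69% within 5 kb to 37.4% at 500 kb or more, while SINE ends at 1.74%.

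Old LINE families lay nearer to genes than rodent L1. The 21 L2 peaks had a median distance of 26.6 kb and the 25 older mammalian L1 peaks 75.2 kb, against 149.5 kb for rodent-lineage L1 and 190.9 kb for RNHAL1. In introns lay 11 of the 25 older L1 peaks (44.0%, 24.4 to 65.1%), 128 of 683 rodent-lineage L1 peaks (18.7%, 15.9 to 21.9%) and 22 of 169 RNHAL1 peaks (13.0%, 8.34 to 19.0%). No older L1 peak and no peak outside L1 overlapped an iOL peak, 0 of 25 each, which allows a share of up to 12%. Among the L2 copies, chosen for naming after their values were seen, 1 lay 5.47 kb upstream of the growth factor receptor gene Erbb2 (L2a, chromosome 10, 86362021 to 86362225, score 8.94). Another lay in intron 1 of the glucocorticoid receptor gene Nr3c1, with Spry4 as its nearest gene (chromosome 18, 32526969 to 32527173, score 8.94). The highest L2 score, 10.2, was at an L2b copy nearest to Echs1, a gene of fatty acid oxidation (chromosome 1, 141765313 to 141765517). The CR1 peak, an L3b copy, had the microRNA gene Mir183 as its nearest gene at -12.5 kb (chromosome 4, 57476125 to 57476329, score 7.66).

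Promoter and exon peaks carried no repeat label, so LINE copies under them are missing near the TSS. The share of other peaks within 2 kb of a TSS was not worked out. Of the labelled LINE peaks 5 lay within 2 kb of a TSS, and all 5 were upstream. They were an RNHAL1 copy at Orc2, a subunit gene of the origin recognition complex (-1134 bp, chromosome 9, 65382491 to 65382695), and an L2 copy at Cd69, a lymphocyte activation gene (-1392 bp, chromosome 4, 163050355 to 163050559). The others were an L2b copy at the matrilin gene Matn4 that lies inside intron 3 of Rbpjl (-1513 bp), an Lx10 copy at Pip4p1 (-1539 bp) and an Lx2B2 copy at Spink13 (-1583 bp). Copies of Lx2 in Rpusd4 (2238 bp) and of L1_Rat2 in Lrrc34 (2258 bp) followed, then L1_Rat1 at Nlrp6 (-2349 bp), RNHAL1 at Or5d41b (2419 bp) and L1_Rat2 at Or5p5 (2580 bp). These 10 scores ran from 6.38 to 8.94, and none of the 10 overlapped an iOL peak.

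The intron peaks lay in 155 host transcripts, of which 10 held more than 1. Intron 1 held 46 of the 167 (27.5%, 20.9 to 35.0%), against 31.3% of intron peaks outside LINE. Anks1b, an ankyrin repeat gene of the synapse, and Dpyd, which breaks down pyrimidines, held 3 each. Grm8, a metabotropic glutamate receptor gene, Gria4, an AMPA receptor gene, Tcf12, a partner of lineage bHLH factors, Srgap1, a gene of the SLIT-ROBO pathway, Patj, a gene of tight junctions, and Ttc27 held 2 each. These hosts were named after their values were seen. Scores of 11.5, the highest in introns, were at copies in Atrn, Cyp3a2, Dpyd, Marchf1 and Ranbp17.

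Chromosome X held the largest LINE share among the 20 autosomes and X. Of its 127 peaks 49 were in LINE (38.6%, 30.1 to 47.6%), against 16.9% on chromosome 2 (14.1 to 20.1%), the next in order, and 15.5% on chromosome 15. The lowest shares were 1.89% on chromosome 12 (0.762 to 3.85%), 3.71% on chromosome 10 and 3.83% on chromosome 20. By count X was not the first: chromosome 2 held 104 LINE peaks, chromosome 5 held 52 and chromosome 15 held 46, against the 49 on X. Peaks without a label were few on X. Of the 4320 intergenic or intron peaks with no repeat or CpG island label, 15 were on X (0.347%). Put the other way, 5.43% of LINE peaks were on X (4.05 to 7.12%), against 1.4% of all annotated peaks. The 3 leading subfamilies had larger parts of their peaks on X than the other LINE peaks, with 22 of 217 L1_Rn peaks (10.1%), 15 of 169 RNHAL1 peaks (8.88%) and 6 of 80 L1_Rat1 peaks (7.5%) on X, while the others had 6 of 436 there (1.38%, 0.507 to 2.97%).

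The X share was larger at both short and long distances from a TSS. At 100 kb or more from a TSS, 38 of 71 X peaks between genes or in introns were in LINE (53.5%, 41.3 to 65.5%), against 503 of 2316 on the other chromosomes (21.7%, 20.1 to 23.5%). Under 100 kb it was 11 of 45 (24.4%, 12.9 to 39.5%) against 350 of 5396 (6.49%, 5.84 to 7.18%). The LINE content of each chromosome was not measured, and its part in this was not tested. X also held 27 of the 279 RatSatRep2 peaks and 0 of the 509 SINE peaks. Of the 49 LINE peaks on X 0 overlapped an iOL peak, which allows a share of up to 6.12%, while 8 of all 127 X peaks did (6.30%, 2.76 to 12.0%). After the Map7d2 copy, the highest on X was an L1_Rn copy in intron 2 of Arhgef6, a guanine nucleotide exchange factor gene (159816810 to 159817014, score 10.9).

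**Figure D5:**
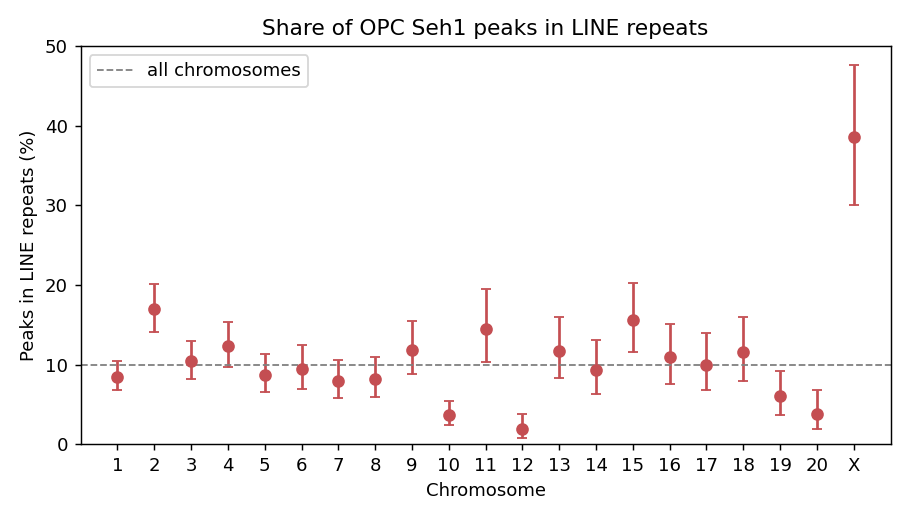
Share of annotated OPC Seh1 peaks that lie in LINE repeats (percent, vertical axis) on each autosome and on X (horizontal axis), with exact binomial 95% intervals as bars, and the share over all chromosomes (9.93%) as a dashed line. X stands at 38.6%, above the interval of every autosome, and chromosomes 12, 10 and 20 are lowest.

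LINE peaks were spread thinly. Another OPC peak of any kind lay within 50 kb of 174 LINE peaks (19.3%, 16.8 to 22.0%), against 43.6% of all annotated peaks, 34.7% of LTR peaks and 48.3% of SINE peaks. For RatSatRep2 peaks the share was lower still, 33 of 279 (11.8%, 8.28 to 16.2%). Another LINE peak lay that near for 51 of them, in 26 neighbouring pairs. Of the 26 pairs 20 held an L1_Rn or RNHAL1 copy, and 2 were of 1 subfamily. L1_Rn made up 24.1% of all LINE peaks and RNHAL1 18.7%, so many pairs would hold 1 of them in any case. The number to be had from these shares was not worked out. The closest pair, an L1MB5 and an Lx3C copy 2.48 kb apart (chromosome 7, 63998933 to 64001821), had scores of 7.66 and 7.02.

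As nearest genes the LINE peaks had 765 genes, 13.2% of the 5796 genes that were nearest to any annotated peak. For 395 of them every annotated peak was a LINE peak. The gene with the most LINE peaks was Erhl1, on chromosome 2, with 6 of its 7 peaks in L1_Rn, L1_Rn2, RNHAL1, L1_Rat1 and L1_Rat3 copies from 89.6 to 3506 kb away. Another 17 genes had 3 each, among them Serpinb8, B3galt2, Glul, Klhl14, the cadherin gene Cdh8, Mir2985 and Selenbp1. The 3 at Glul, the glutamine synthetase gene, lay 459.9 to 501.8 kb from its TSS.

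Olfactory and vomeronasal receptor genes, which stand in large tandem clusters, were the nearest gene of 60 LINE peaks (6.65%, 5.11 to 8.48%), against 2.01% of all peaks between genes or in introns. LINE made up 37.0% of the 162 peaks nearest to such genes (29.6 to 45.0%). The highest was the L1_Rn copy nearest to Or2m12 (score 12.1), followed by copies nearest to Or2aj4b and Vom2r53 (11.5 each). This gene group was picked after its values were seen. The LINE content around these clusters was not measured, and its part in these shares was not tested. Shares for the other repeat classes were not worked out.

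Gene lists are read against the 13.2% of genes that had a LINE peak among all genes nearest to any annotated peak. Of 26 oligodendrocyte lineage regulators 16 had an annotated peak of any kind, and 2 of these had a LINE peak. Nkx2-2, a homeobox regulator, had 2 of its 4 peaks in LINE copies, the nearer an RNHAL1 copy at 314.6 kb, and Sox6, which holds back differentiation, had 2 of 3, the nearer at 757.4 kb. Of 26 OPC and myelin genes 11 had any peak and 2 a LINE peak, and both counts are too small to read against that share. The only peak of Opalin, a gene of mature oligodendrocytes, was an L1_Rat4 copy 3.10 kb upstream of its TSS (chromosome 1, 260344675 to 260344879, score 7.02, focus ratio 0.812), without overlap in iOL. The proteoglycan gene Vcan was nearest to an L1_Rn copy at -165.7 kb that lies in an intron of Xrcc4 (score 8.94).

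Genes that restrain L1, such as DNA methyltransferases and members of the HUSH complex, had no LINE peak, 0 of 25, while 10 had a peak of another kind. Genes without a peak are left out of the 13.2%, so the count to set beside it is 0 of 10, too small to read. Among 35 genes of Wnt, Notch and BMP signalling 4 had a LINE peak and 25 any peak. Wnt5a (102.3 kb), Bmpr1b (-172.2 kb), Dkk2 (-196.9 kb) and Bmp4 (-623.1 kb) were these. Of 28 nucleoporin genes 2 did, against 13 with any peak: Nup50, a basket protein gene, had an RNHAL1 copy at -12.3 kb as its only peak (chromosome 7, 125821204 to 125821408, score 7.02), and Nup35 an Lx copy at 424.3 kb. Of 21 astrocyte genes 3 did, Gjb6, Nfia and Glul, against 14 with any peak. These counts are small and were not tested against the 13.2% over all genes nearest to any annotated peak.

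Long neuronal adhesion and synaptic genes had LINE peaks most often among the 7 lists, in 12 of 28 genes, against 20 with any peak, and LINE gave 15 of their 46 peaks (32.6%). Over all annotated peaks LINE gave 9.93% of peaks. Of the genes nearest to any annotated peak 13.2% had a LINE peak. The count to set beside that share is 12 of 20, since genes without a peak are left out of it. Among the list's LINE peaks nearest to a TSS was an L1VL4a copy in Erbb4, the neuregulin receptor gene (11.2 kb, score 7.02). Another was an L1_Rat1 copy in the contactin gene Cntn4 (40.2 kb, score 9.58). Copies in Cntn5 (RNHAL1, 138.3 kb), Grik2 (Lx5b, 179.6 kb) and Ntm (L1_Rn, 249.2 kb) lay farther off, and these 5 copies each lay in an intron of the gene itself. The lists were not tested, and gene length and the LINE content around each gene were not measured.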

How the data were processed

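ChIP-seq peak lists of 1 Seh1 library of OPC and 1 of iOL were analysed. The submitters' processing notes name Bowtie2 and HOMER without versions, and both rn6 and hg18 without saying what each served. How reads that match several places were handled, and the peak thresholds, were not stated in any source used. Copies of young L1 subfamilies are near-identical, so such a peak may not identify the copy its reads came from.

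The annotated table is recorded under iOL, but per the file headers HOMER annotated an rn6 peak set whose name joins OPC Seh1 with iOL IgG. Its 9084 intervals all match OPC peaks exactly and 0 match iOL peaks, so it was used for OPC. It gives the deposited score and the focus ratio, a deposited fraction from 0 to 1, for each peak. Positions in all 3 files are the authors' and deposited without counts.

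LINE members were rows with LINE as the second field of the detailed annotation. Peaks were shared at an overlap of at least 1 bp. Shares have exact (Clopper-Pearson) 95% intervals and shares of 0 the limit of 3 counts, computed with scipy 1.17.1. The overlap code was tested on simulated data. Nearest genes are the table's, with symbols from RefSeq (GRCr8) by gene ID for 888 of 902 LINE peaks and the table's symbol otherwise, and no GRCr8 coordinate was used.

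Named items were the 10 highest, 5 lowest and 10 most TSS-near LINE peaks, the 15 widest overlaps, the 10 leading subfamilies, all families, the 8 genes with most LINE peaks and up to 6 genes a list. Others are marked in the text, and 1 named item is not reported here. Ties were broken by chromosome and start. L1 groups followed name prefixes. Members and lists were chosen with earlier results of these data known. Focus ratios by subfamily, chromosomes and score classes were chosen after the data were seen. Alternatives changed the score limit, the chromosomes, the overlap, the denominator and the gap between neighbours.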

Additional observations from a re-analysis of the deposited data

How the results depend on the processing

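Of 44 alternative values, 36 stayed within the 95% interval of the reported value, or within 1.5 times of a count, and 8 did not. With peaks at or above the median score alone, 3.46% of LINE peaks were shared with iOL and their median score was 8.3, which the limit itself raises. Without L1_Rn peaks, a setting added after seeing the data, these values were 1.31% and 7.02. With peaks between genes or in introns as the denominator, LINE made up 11.5%. Counting RNHAL1 as rodent-lineage L1, also added after seeing the data, gave 94.5%. LINE peaks with another LINE peak nearby numbered 10 within 10 kb and 84 within 100 kb, against 51 within 50 kb. No LINE label carried a question mark, so leaving such labels out could change nothing, yet these values count among the 36. Leaving out the highest-scoring LINE peak, also among them, could hardly move a median over 902 peaks. The share of chromosome X peaks in LINE was 38.1% at or above the median score, and the L1_Rn focus ratio 0.689. No paired analysis was possible because each group has 1 library and no result comes from a test. Depth is unknown, and background at LINE repeats was not measured.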
